A study of Mus musculus with 7 samples.

Results

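The genes described here are those of the murine chromosome 17 window from 20 to 25 Mb (NCBI37/mm9), as expressed in mouse embryonic fibroblasts (MEFs, primary cells grown out of the trunk of an embryo). Members were chosen by position, and the window itself was selected on the measured levels of its zinc finger genes in the comparison described below, so its counts in that comparison are descriptive. Of 162 genes annotated in the window, 67 were among the 15531 genes the authors tested. Of these 67, 21 carry a symbol that begins with Zfp and 46 do not. The 95 genes that were not in the tested list included all 30 vomeronasal receptor genes, 3 formyl peptide receptor genes, 5 serine protease genes named Prss and 24 genes that do not code for protein.

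RNA came from 7 primary MEF lines, taken on embryonic day 13.5 and used confluent at passage 4. The 4 Df/+Bl6 lines carried a chromosome 4 from 129S5/SvEvBrd with an engineered deletion in band 4E2, opposite an intact chromosome 4 from C57BL/6J. The 3 +129/+Bl6 control lines had intact copies from both strains. Chromosome 17 was not engineered in either genotype. Every line was an F1 hybrid, so that each autosomal gene was present as a 129S5 and a C57BL/6J copy in both genotypes outside the deletion. The labels name neither litters nor batches.

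The values are the authors' mean normalized counts for each genotype, given only for genes they called differentially expressed at a false discovery rate of 0.05. Such genes are called listed here. No value of a single line could be assigned, so the means carry no SD, and a tested gene that was not listed has no value here. The depth of each line is likewise unknown. Ratios are log2 of the Df/+Bl6 mean over the +129/+Bl6 mean. In bulk RNA, a change in the share of cells that express a gene and a change in the RNA per cell cannot be told apart.

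Most Zfp genes of this window belong to the KRAB zinc finger family. Their proteins bind DNA through arrays of C2H2 zinc fingers, short loops in which a pair of cysteines and a pair of histidines hold a zinc ion. The KRAB domain at the start of the protein recruits TRIM28 and with it histone methylation and heterochromatin protein 1, and a well known task of the family is to silence transposable elements. The genes lie in clusters that arose by tandem duplication, so neighbours are often close relatives.

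The 4 promoters below are shown because they belong to 2 pairs of divergent zinc finger genes of which 1 partner each was listed. Zfp942 and Zfp943 start 88 bp apart on opposite strands, and so do Zfp944 and Zfp758, 53 bp apart. Sequences are from RefSeq (GRCm38.p6, 250 bases before to 50 bases after the start of the gene, each 5′ to 3′ on the strand of its gene). Zfp942 is at chr17:21962415-21962714 (minus strand), Zfp943 at chr17:21962309-21962608 (plus), Zfp944 at chr17:22361351-22361650 (minus) and Zfp758 at chr17:22361213-22361512 (plus). Capitals mark a run of 162 bases that all 4 windows hold without a mismatch, read on one strand in Zfp942 and Zfp944 and on the other in Zfp943 and Zfp758.
Zfp942: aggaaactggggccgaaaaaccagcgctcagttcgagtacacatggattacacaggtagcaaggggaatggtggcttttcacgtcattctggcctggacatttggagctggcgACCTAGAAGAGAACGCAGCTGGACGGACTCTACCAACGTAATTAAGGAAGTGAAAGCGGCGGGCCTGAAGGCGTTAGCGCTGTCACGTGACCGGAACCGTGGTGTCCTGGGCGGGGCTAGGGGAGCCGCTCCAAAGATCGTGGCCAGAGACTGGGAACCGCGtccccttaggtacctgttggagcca
Zfp943: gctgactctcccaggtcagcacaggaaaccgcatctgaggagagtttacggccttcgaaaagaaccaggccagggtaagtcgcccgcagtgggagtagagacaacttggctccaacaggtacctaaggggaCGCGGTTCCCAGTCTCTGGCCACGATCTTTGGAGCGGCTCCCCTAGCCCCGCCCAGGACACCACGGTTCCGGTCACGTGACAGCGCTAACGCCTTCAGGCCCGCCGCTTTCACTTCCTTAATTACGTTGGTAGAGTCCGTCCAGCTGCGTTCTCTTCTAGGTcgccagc
Zfp944: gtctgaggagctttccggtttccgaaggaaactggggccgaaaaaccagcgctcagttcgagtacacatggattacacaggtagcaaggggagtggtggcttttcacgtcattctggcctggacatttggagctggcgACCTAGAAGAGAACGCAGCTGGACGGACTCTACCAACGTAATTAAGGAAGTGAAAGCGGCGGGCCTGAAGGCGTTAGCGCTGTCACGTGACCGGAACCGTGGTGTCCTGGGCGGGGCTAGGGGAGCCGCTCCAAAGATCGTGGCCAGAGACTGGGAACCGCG
Zfp758: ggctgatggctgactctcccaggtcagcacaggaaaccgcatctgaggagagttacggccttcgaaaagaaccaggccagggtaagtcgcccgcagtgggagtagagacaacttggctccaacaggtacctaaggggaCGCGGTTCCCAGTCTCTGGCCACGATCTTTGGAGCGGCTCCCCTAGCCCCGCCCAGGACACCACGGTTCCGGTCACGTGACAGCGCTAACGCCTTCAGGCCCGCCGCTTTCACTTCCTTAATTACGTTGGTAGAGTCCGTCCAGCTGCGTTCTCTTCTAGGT

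The windows of partners overlap on the genome, so the run common to partners is the same DNA. The run common to both pairs lies at separate places on the chromosome. In local alignment, the windows of Zfp942 and Zfp944 were identical at 274 of 275 aligned positions, and those of Zfp943 and Zfp758 at 292 of 293. Zfp942 was listed and Zfp944 was not. Zfp758 was listed and Zfp943 was not. Genes with nearly the same start region thus stood on either side of the listing, though a gene that was not listed is not shown to be unchanged.

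In the comparison of both alleles together, 14 of the 67 tested genes (20.9%) were listed, beside 8.67% of all 15531 tested genes. Of the 14, 12 were higher in Df/+Bl6 (5.13% of all tested genes were listed as higher) and 2 were lower (3.54% of all tested genes). The zinc finger genes made up most of them. All 21 annotated Zfp genes of the window were tested, 10 were listed (47.6%), and all 10 were higher in Df/+Bl6. Their ratios of Df/+Bl6 to +129/+Bl6 ran from 1.72-fold to 2.23-fold with a median of 1.95-fold, which is 0.96 on the log2 scale. Of the 46 other genes, 4 were listed (8.70%), 2 as higher and 2 as lower.

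**Figure D1:**
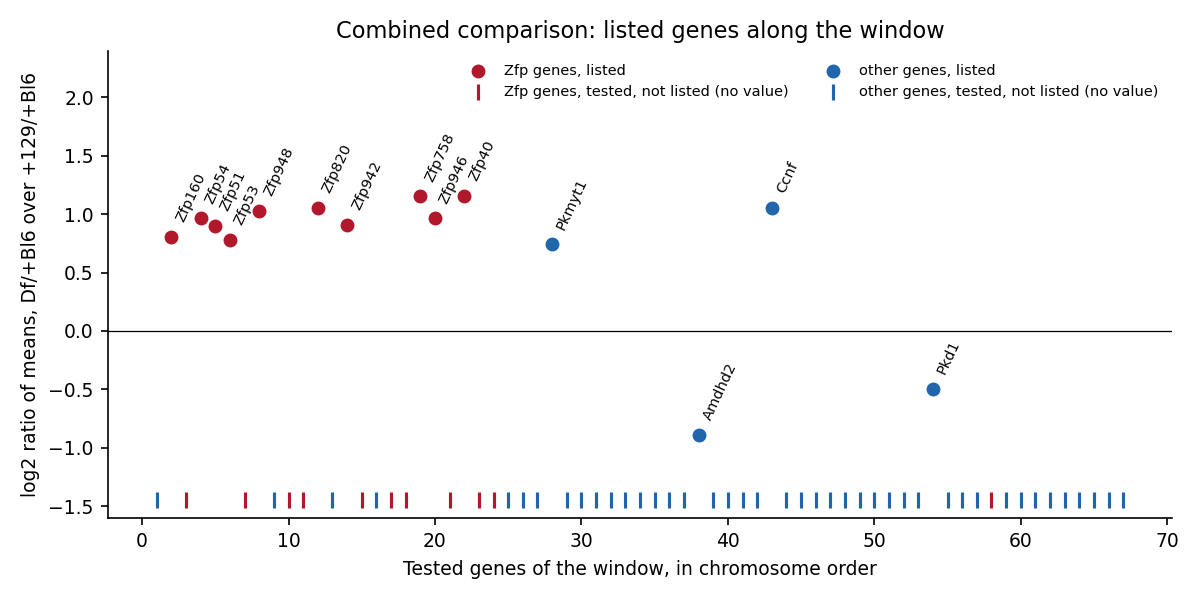
Log2 ratio of the genotype means for the 14 listed genes (points) against the rank of the gene among the 67 tested genes of the window, with ticks at the foot for tested genes that were not listed and have no value. The 10 listed Zfp genes lie between 0.78 and 1.16, all to the left of the 4 other listed genes.

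The listed Zfp genes are given in chromosome order. Zfp160 (ENSMUSG00000067942, chr17:21145905-21165816, plus strand) had a mean normalized count of 1581 in Df/+Bl6 and 903.0 in +129/+Bl6, a log2 ratio of 0.81. Zfp54 (ENSMUSG00000023882, chr17:21560191-21572604, plus strand) had means of 354.9 and 181.7, a log2 ratio of 0.97. Zfp51 (ENSMUSG00000023892, chr17:21587316-21602555, plus strand) had means of 951.0 and 508.5, a log2 ratio of 0.90. Zfp54, Zfp51 and the next gene, Zfp53, follow each other among the tested genes and all 3 were listed. Zfp53 (ENSMUSG00000057409, chr17:21628220-21646629, plus strand) had means of 790.8 and 460.5, the lowest log2 ratio of the 10 at 0.78.

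Zfp948 (ENSMUSG00000067931, chr17:21704010-21725664, plus strand) had means of 2760 in Df/+Bl6 and 1352 in +129/+Bl6, a log2 ratio of 1.03. Zfp820 (ENSMUSG00000069743, chr17:21953843-21982726, minus strand) had means of 659.0 and 317.2, a log2 ratio of 1.06. Zfp942 (ENSMUSG00000071267, chr17:22063927-22099431, minus strand) had means of 1001 and 531.9, a log2 ratio of 0.91. Per kb of the longest annotated transcript, Zfp948 had the highest level of the 10 in both genotypes, with mean normalized counts per kb of 1057 in Df/+Bl6 and 517 in +129/+Bl6. Zfp40 had the lowest, with 91.6 and 41.0 per kb.

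Zfp758 (ENSMUSG00000044501, chr17:22498420-22514248, plus strand) had means of 424.4 in Df/+Bl6 and 190.5 in +129/+Bl6, a log2 ratio of 1.16. Zfp946 (ENSMUSG00000071266, chr17:22561189-22593656, plus strand), the next tested gene, had means of 994.5 and 509.8, a log2 ratio of 0.96. Zfp40 (ENSMUSG00000002617, chr17:23310836-23330219, minus strand) had means of 375.8 and 168.2, a log2 ratio of 1.16. The ratios of all 10 genes thus differed by less than 0.4 on the log2 scale while their levels per kb spanned more than 10-fold. This range is cut from below by the listing, because Zfp genes that were not listed have no ratio here. At means under 300 no listed gene of the whole series had a ratio smaller in size than 0.97, that of Zfp54. A like shift across levels is therefore not shown. The errors of these ratios are unknown, so their order among the 10 genes is not resolved.

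**Figure D2:**
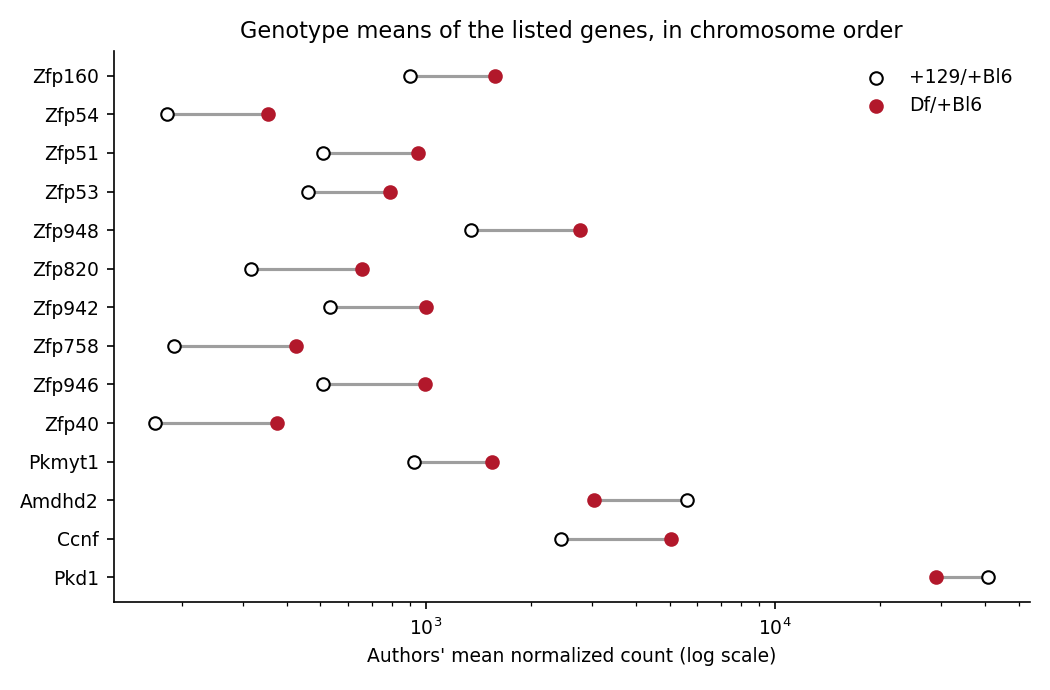
Authors' mean normalized counts (log scale) of the 14 listed genes in Df/+Bl6 (filled points, 4 lines) and +129/+Bl6 (open points, 3 lines), in chromosome order. The filled point lies to the right of the open one for every gene but Amdhd2 and Pkd1, and no error bars can be drawn because only means were used.

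The 11 tested Zfp genes that were not listed for both alleles together were Zfp677, Zfp52, Zfp760, Zfp229, Zfp943, Zfp947, Zfp944, Zfp945, Zfp213, Zfp13 and Zfp598. They lay between and beside the listed genes. Zfp160 had Ppp2r1a, the scaffold subunit of protein phosphatase 2A, and Zfp677 as its tested neighbours, and Zfp52 separated Zfp53 from Zfp948. Zfp948 was followed by 3110052M02Rik, Zfp820 lay between Zfp229 and 2210404O09Rik, and Zfp40 lay between Zfp945 and Zfp213. The stretch from the start of Zfp160 to the end of Zfp40, chr17:21145905-23330219, covered 2.18 Mb and held all 10 listed Zfp genes among 18 tested Zfp genes (55.6%) and 21 tested genes in all. Beyond Zfp40, none of the 3 tested Zfp genes was listed. Among those 3 is Zfp598, an E3 ubiquitin ligase that senses collided ribosomes rather than a classical KRAB protein.

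Sorted by megabase, 6 of 10 tested Zfp genes were listed at 21 to 22 Mb and 3 of 7 at 22 to 23 Mb. At 23 to 24 Mb 1 of 3 was listed and at 24 to 25 Mb 0 of 1. No gene at 20 to 21 Mb was tested. The boundaries of the window did not cut a run of listed genes. The nearest tested genes before it were Has1 and Fpr1 and the first tested genes inside it Ppp2r1a and Zfp160, and of these only Zfp160 was listed. At the other end, Hagh and Fahd1 inside and Nubp2 and Spsb3 outside were not listed.

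Flanking windows of the same chromosome differed from it in their counts. From 15 to 20 Mb, 1 of 22 tested genes was listed (4.55%). From 25 to 30 Mb, 15 of 115 were listed (13.0%), of which 4 were higher and 11 lower in Df/+Bl6. The 115 held 1 tested Zfp gene, which was not listed, beside 21 tested Zfp genes at 20 to 25 Mb. Of the 46 other genes at 20 to 25 Mb, 8.70% were listed, a share between those of the flanks. Across the genome, 308 tested Zfp genes lay outside the window, 48 of them were listed (15.6%), and all 48 were higher in Df/+Bl6. Their median ratio was 1.77-fold, or 0.82 on the log2 scale. The 58 listed Zfp genes lay on 16 of 20 chromosomes.

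Of 135 windows of 5 Mb that held a tested Zfp gene, 9 held at least 9 of them. In the largest cluster after this one, at 65 to 70 Mb of chromosome 13, 3 of 18 were listed (16.7%). At 25 to 30 Mb of chromosome 7 the count was 1 of 15 (6.67%), and at 30 to 35 Mb it was 2 of 13 (15.4%). On chromosome 17 itself, 2 of 9 were listed at 30 to 35 Mb (22.2%). Windows with few Zfp genes could have higher shares, as at 60 to 65 Mb of chromosome 13, where 3 of 4 were listed (75.0%), next to its large cluster. No window other than the one at 20 to 25 Mb of chromosome 17 had more than 3 listed Zfp genes. Since the window was selected on this count, no test of it is given.

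**Figure D3:**
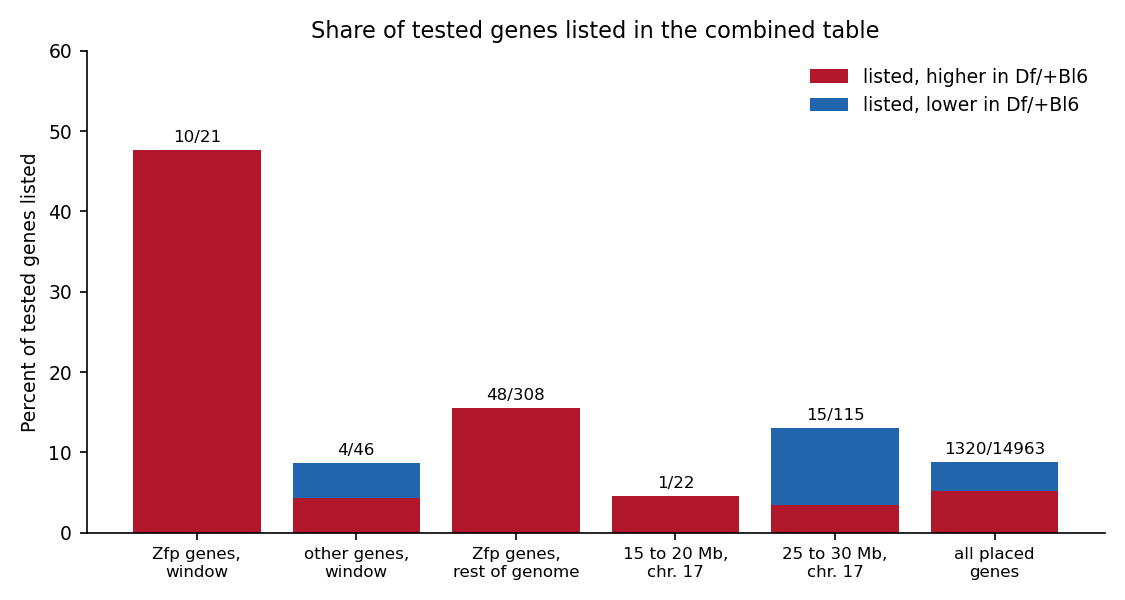
Percent of tested genes listed in the comparison of both alleles together, split into higher (red) and lower (blue) in Df/+Bl6, with the number listed over the number tested above each bar. The bar of the window's Zfp genes reaches 47.6% and is all red, that of Zfp genes elsewhere 15.6%, and that of all tested genes with a position 8.82%.

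The size of the listed ratios, in either direction, differed with the level of the gene. Among the 93 listed genes with a mean over all lines under 300, the smallest was 0.97 on the log2 scale, that of Zfp54, and the median 1.39. Among the 379 with a mean of 1000 to 3000, the smallest was 0.50 and the median 0.81. The listed Zfp genes of the window had means over all lines of 280.7 to 2156. Among all 451 listed genes within that range, 295 were higher in Df/+Bl6 and 156 lower, and the median log2 ratio of the higher ones was 0.92, beside 0.96 for the 10 Zfp genes. The ratios of these 10 were therefore of the size common for listed genes at that level. Their shared place follows from the rule that chose the members. Their direction was also that of all 48 listed Zfp genes outside the window.

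**Figure D4:**
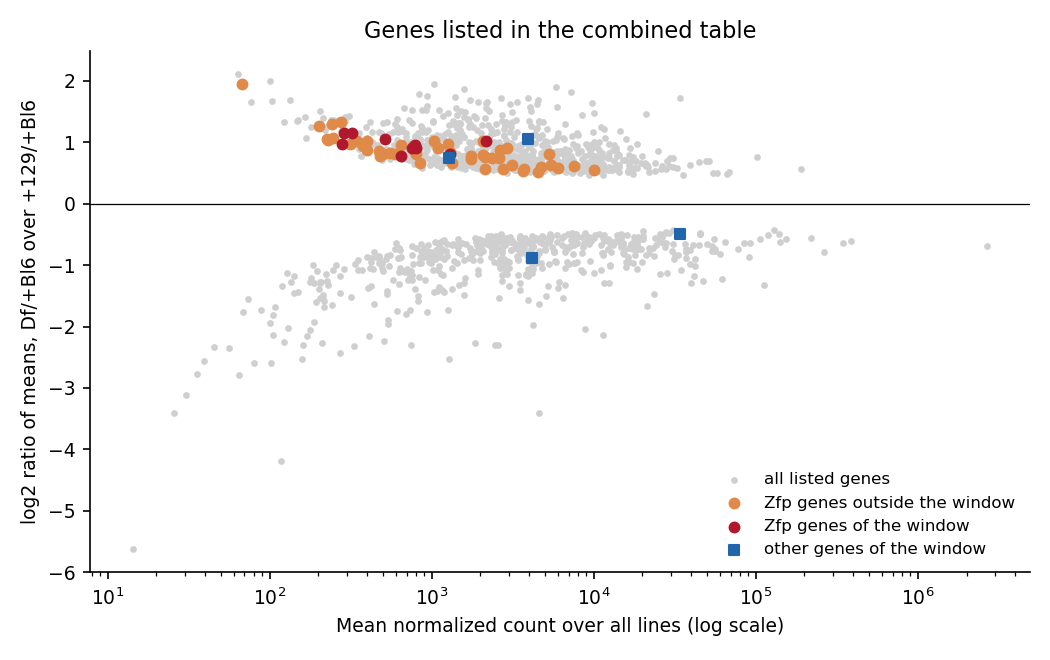
Log2 ratio of the genotype means against the mean normalized count over all lines (log scale) for all 1346 genes listed for both alleles together. The window's 10 Zfp genes (dark red) lie between 0.78 and 1.16 among the grey points of the same mean, and Zfp genes elsewhere (orange) are all above 0.

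Translations of the longest coding sequences held 11 to 19 C2H2 motifs (median 13.5) in the 10 listed genes and 1 to 18 (median 11) in the other 11. A KRAB-like stretch was found in 9 of the 10 listed genes and in 5 of the other 11. Counted the other way, 9 of 14 Zfp genes with that stretch were listed (64.3%) and 1 of 7 without it (14.3%), the 1 being Zfp160. The 7 include Zfp213, Zfp13 and Zfp598, which lie beyond Zfp40, and Zfp598 held only 1 C2H2 motif. The split within the window is thus mixed with place and motif count. Outside the window the stretch made no such split among Zfp genes with at least 3 C2H2 motifs, as 12 of 74 with it (16.2%) and 33 of 193 without it (17.1%) were listed. These genes were sorted by a pattern in the translation, which can miss a diverged KRAB domain. Zfp947 counted as without the stretch, while 2210404O09Rik, 90.4% identical to it, had the stretch.

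The family relations cut across the listing. In global alignments of the 23 window proteins with at least 3 C2H2 motifs, identity ran from 15.6% to 90.4% over 253 pairs, with a median of 39.7%. The closest pair, Zfp947 and 2210404O09Rik at 90.4%, had no listed member. The next, Zfp942 and Zfp944 at 78.9%, had 1. For 7 of the 10 listed genes the closest relative was also listed, for example Zfp51 and Zfp53 at 62.3% and Zfp820 and Zfp942 at 65.9%, and for Zfp160, Zfp942 and Zfp40 it was not, though Zfp945, the closest to Zfp40, was listed for the 129S5 allele. The closest relative was also listed for 8 of the 13 other proteins, so the count does not set the listed genes apart. Among those 13, E4f1, a zinc finger protein first known as a target of the adenoviral E1A oncoprotein, was the least alike to any other, at 22.4% to Zfp160.

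Reads of close paralogues can be misassigned, and the authors kept only pairs with one best location and no mismatch. For the Zfp genes, 100-base stretches of the longest transcript were sought in the longest transcripts of the other protein-coding genes. The share found there was at most 1.64% among the listed genes, in Zfp942 with Zfp944, and at most 1.94% among the others. Pseudogenes and noncoding genes were not searched. In all, 4 listed genes overlap another annotated gene. Zfp946 overlaps AC122270.1, Pkmyt1 overlaps Paqr4, Ccnf overlaps AC117577.2, and Pkd1 overlaps Tsc2 and AC132367.1. The libraries were stranded, but whether the counting used strand is not given in the sources used here.

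Further promoters are shown for 2 listed Zfp genes whose windows hold the letters CACGTG, and for Ccnf and Amdhd2, the other genes with the largest changes in either direction. RefSeq windows were found for 12 of the 15 genes listed in any table. Pkmyt1, Zfp40 and Zfp51 had none. Zfp820 is at chr17:21845710-21846009 (minus strand), Zfp946 at chr17:22423952-22424251 (plus), Ccnf at chr17:24251360-24251659 (minus) and Amdhd2 at chr17:24163684-24163983 (minus), all in GRCm38.p6. Capitals mark GGGCGG (the GC box, bound by SP1 and its relatives), CCAAT (bound by NF-Y), CACGTG (the E-box) and TTTGAA (the core of the cell cycle genes homology region), on either strand.
Zfp820: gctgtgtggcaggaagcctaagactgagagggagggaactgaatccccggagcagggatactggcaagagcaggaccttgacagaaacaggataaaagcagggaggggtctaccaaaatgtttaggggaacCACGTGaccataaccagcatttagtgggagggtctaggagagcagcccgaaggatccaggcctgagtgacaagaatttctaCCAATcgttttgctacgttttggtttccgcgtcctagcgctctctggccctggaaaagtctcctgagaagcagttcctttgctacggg
Zfp946: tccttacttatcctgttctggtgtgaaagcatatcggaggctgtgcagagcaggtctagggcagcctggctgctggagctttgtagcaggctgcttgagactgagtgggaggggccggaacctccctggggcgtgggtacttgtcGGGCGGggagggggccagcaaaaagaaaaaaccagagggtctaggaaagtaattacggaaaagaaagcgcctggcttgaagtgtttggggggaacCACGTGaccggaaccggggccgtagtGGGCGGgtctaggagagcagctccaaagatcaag
Ccnf: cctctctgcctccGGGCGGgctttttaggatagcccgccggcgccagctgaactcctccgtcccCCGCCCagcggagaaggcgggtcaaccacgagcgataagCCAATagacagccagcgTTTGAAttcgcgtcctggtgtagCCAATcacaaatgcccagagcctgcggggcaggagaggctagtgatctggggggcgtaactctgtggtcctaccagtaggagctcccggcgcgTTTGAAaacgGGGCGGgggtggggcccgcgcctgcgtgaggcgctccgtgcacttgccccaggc
Amdhd2: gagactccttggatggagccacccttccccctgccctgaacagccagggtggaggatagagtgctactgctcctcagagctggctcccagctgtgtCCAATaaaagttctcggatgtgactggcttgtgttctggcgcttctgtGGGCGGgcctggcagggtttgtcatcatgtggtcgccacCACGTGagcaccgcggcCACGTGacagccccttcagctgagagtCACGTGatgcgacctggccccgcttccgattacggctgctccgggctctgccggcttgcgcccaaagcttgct

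Over one RefSeq window per gene, GGGCGG or its complement stood in 14 of 19 tested Zfp genes of the window with a match (73.7%), beside 35.9% of 27025 promoters of the same length. CCAAT stood in 8 of the 19 (42.1%), beside 37.9% of all, and TTTGAA in 2 (10.5%), beside 18.1%. TATAAA stood in none of the 19, beside 14.2% of all. CACGTG, searched after the sequences had been seen, stood in 7 of the 19 (36.8%), beside 7.24% of all promoters. Those 7 were Zfp820, Zfp942, Zfp943, Zfp947, Zfp944, Zfp758 and Zfp946, the 7 Zfp genes that follow each other there, and 4 of them were listed. In Zfp942, Zfp943, Zfp944 and Zfp758 it lies within the shared run, so these are not separate occurrences. The windows of Zfp820, Zfp947 and Zfp946 were not aligned, so whether their CACGTG is a separate occurrence was not tested. The same holds for GGGCGG in Zfp942, Zfp943, Zfp944 and Zfp758, where it lies within the shared run. CpG counts per window ran from 7 to 20 (median 10) in the 9 matched Zfp genes listed in any table and from 5 to 29 (median 12) in the 10 others. The median over all 27025 promoters was 7, so the Zfp windows were also richer in CpG than most.

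Away from the zinc finger stretch, the listed genes were a mixed set. Ccnf (ENSMUSG00000072082, chr17:24359494-24388292, minus strand) encodes cyclin F, a substrate receptor of an SCF ubiquitin ligase that is most abundant in G2. Its means were 5061 in Df/+Bl6 and 2436 in +129/+Bl6, a log2 ratio of 1.05. Its promoter window holds TTTGAA at 2 places and CCAAT at 2. Pkmyt1 (ENSMUSG00000023908, chr17:23863303-23873696, plus strand) encodes the membrane-bound kinase that holds CDK1 inactive until mitosis. Its means were 1553 and 929.0, a log2 ratio of 0.74. Of 5 tested members with roles in the cell cycle, replication or repair, these 2 were listed as higher, beside 5.13% of all tested genes. Ppp2r1a, E4f1 and Nthl1, a DNA glycosylase of base excision repair, were not listed.

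Amdhd2 (ENSMUSG00000036820, chr17:24292800-24300733, minus strand) encodes the deacetylase of N-acetylglucosamine 6-phosphate in hexosamine metabolism. Its means were 3035 in Df/+Bl6 and 5622 in +129/+Bl6, a log2 ratio of -0.89, so the Df/+Bl6 mean was 54.0% of the control mean. CACGTG stands at 3 places in its promoter window. In a role group drawn around mitochondrial and metabolic enzymes, with 8 tested genes, Amdhd2 was the 1 listed, beside 8.67% of all tested genes. The others were Eci1, Gfer, Ndufb10, Sepx1, Hagh, Fahd1 and Abca3, which is a transporter and is in the group only as drawn. Pdpk1 and Atp6v0c, the tested neighbours of Amdhd2, were not listed.

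Pkd1 (ENSMUSG00000032855, chr17:24686895-24733459, plus strand) encodes polycystin 1, the large membrane protein altered in most families with dominant polycystic kidney disease. Its means were 28984 in Df/+Bl6 and 40825 in +129/+Bl6, a log2 ratio of -0.49. Per kb, its level was 2045 in Df/+Bl6 and 2881 in +129/+Bl6, beside 2029 and 3758 for Amdhd2. In a role group drawn around mTOR, TSC and polycystin, with 6 tested genes, it was the 1 listed, beside 8.67% of all tested genes. The group also held Tsc2, which codes for tuberin and overlaps the end of Pkd1, Mlst8, a subunit shared by both mTOR complexes, and Pdpk1, a kinase that activates AKT. Tbc1d24 and Traf7, the rest of the group as drawn, are not themselves mTOR, TSC or polycystin genes.

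The remaining role groups had no listed gene. These were 5 tested genes of RNA processing and translation (Thoc6, Srrm2, Rnps1, Tbl3 and Rps2) and 4 of signalling (Tnfrsf12a, Ntn3, Caskin1 and Slc9a3r2). A further 2 were of ubiquitin and protein turnover (Tceb2 and Kctd5). The last 3 formed a mixed group, the serine protease genes Prss22 and Prss27 together with Paqr4, which is not a protease. Tnfrsf12a and Paqr4 are the tested neighbours of Pkmyt1, 1600002H07Rik and Abca3 those of Ccnf, and Traf7 and Tsc2 those of Pkd1. Beyond Zfp40, 4 of 45 tested genes were listed in all (8.89%). That share is near the 8.67% of all tested genes.

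The reads that tell the strains apart give the same comparison for each parental copy. Of the genes tested for both alleles together, 1.65% are in the 129S5 table and 2.09% in that of C57BL/6J. How many genes were tested per allele is not known here. The 3 tables were normalized separately, so levels are not compared between them, and the allele comparisons share their lines and some of their reads with the combined one.

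Ccnf was listed in all 3 tables. Its means were 1514 in Df/+Bl6 and 748.8 in +129/+Bl6 for the 129S5 allele, a log2 ratio of 1.02. For the C57BL/6J allele they were 1692 and 843.1, a log2 ratio of 1.00. Both copies of cyclin F were thus listed as higher in Df/+Bl6, at about the ratio seen for both together. Amdhd2 was also listed in all 3. Its means were 319.3 and 618.3 for the 129S5 allele, a log2 ratio of -0.95, and 1340 and 2318 for the C57BL/6J allele, a log2 ratio of -0.79.

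Among the zinc finger genes, no gene was listed for both alleles. Zfp942 was listed for the 129S5 allele with means of 91.1 in Df/+Bl6 and 35.7 in +129/+Bl6, a log2 ratio of 1.35. Zfp945, which was not listed for both alleles together, was listed for the 129S5 allele with means of 442.2 and 255.2, a log2 ratio of 0.79. Zfp948 was listed for the C57BL/6J allele with means of 693.0 and 372.8, a log2 ratio of 0.89. All of these were higher in Df/+Bl6. Pkmyt1 was listed for the C57BL/6J allele with means of 324.2 and 197.9, a log2 ratio of 0.71. A gene listed for 1 allele is not shown to differ between alleles, as that difference was not tested.

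**Figure D5:**
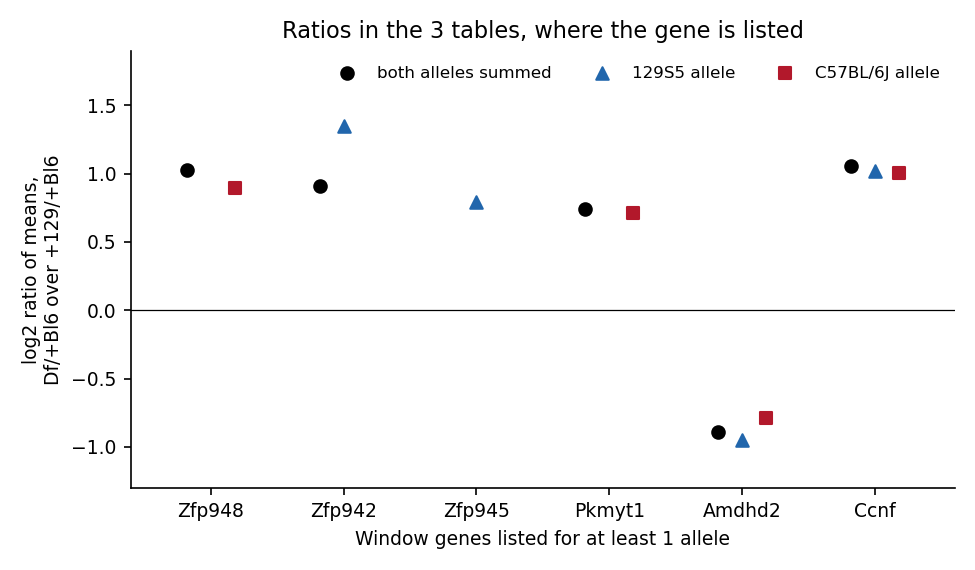
Log2 ratio of the genotype means for the 6 window genes listed for at least 1 allele, from counts of both alleles summed (circles), the 129S5 allele (triangles) and the C57BL/6J allele (squares). A missing symbol means that the gene was not listed in that table, and within a gene all symbols lie on the same side of 0.

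Other features of the cells moved with the genotype. In lists written after the values had been seen, all 14 of 14 proliferation genes were higher in Df/+Bl6 (5.13% of all tested genes were), with log2 ratios from 0.67 for Pcna, the sliding clamp of DNA replication, to 1.72 for Mki67, the nuclear antigen Ki-67, and a median of 0.99. Of 17 genes for KRAB co-repressors and heterochromatin, 7 were listed, beside 8.67% of all tested genes, and all 7 were higher. They were Uhrf1 (0.86), Atrx (0.70), Cbx3 (0.70), Cbx5 (0.70), Smarcad1 (0.68), Mphosph8 (0.58) and Dnmt1 (0.58), given as log2 ratios. Trim28, the co-repressor that KRAB domains bind, and Setdb1, the histone methyltransferase it recruits, were tested and not listed. Since the genes were picked with their values known, these counts are descriptive. The part of either list in the levels of the zinc finger genes, Ccnf and Pkmyt1 was not tested.

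The genotype labels were checked against genes of the deletion, and cell type markers were looked up. Between Rere and Ski, in the deleted part of chromosome 4, 27 of 42 tested genes were listed, and all 27 were lower in Df/+Bl6, with a median log2 ratio of -1.02. All 7 fibroblast markers were among the tested genes and none was listed. Of 10 markers of other cell types 9 were tested, and 1 was listed, Sox10 of the neural crest lineage, with means of 113.2 in Df/+Bl6 and 326.3 in +129/+Bl6. A place among the tested genes gives no level, so the markers do not show which cell types were present.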

How the data were processed

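RNA from 4 Df/+Bl6 and 3 +129/+Bl6 MEF lines was polyA-selected, and stranded libraries were read from both ends. The authors aligned reads with GSNAP, allowing no mismatch, to a C57BL/6J transcriptome (GRCm38/mm10) and a 129S5 version of it, kept pairs with both mates on one gene and one best location, and normalized and tested counts with DESeq. The deposited signal values used here are the authors' mean normalized counts per genotype, for genes past a false discovery rate of 0.05, in 3 tables (both alleles, 129S5, C57BL/6J). In each table the overall mean equals the mean of both genotype means weighted 4 to 3, which ties each mean column to its genotype. The authors' fold changes, p-values and adjusted p-values stand in the same tables and were not used. A further deposited table has 9 value columns without names, which were not used, and its gene identifiers served as the list of tested genes.

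Gene positions, transcripts and translations were taken from the GENCODE annotation of NCBI37/mm9, which placed 14963 of the 15531 tested genes. The members and lists were chosen with earlier results of these data known. Ratios, counts and shares were computed with Python 3.11.15, pandas 2.3.3 and numpy 2.4.6, and figures with matplotlib 3.10.9. A C2H2 motif was a run of residues with the cysteine and histidine spacing of a classical finger, and a KRAB-like stretch was sought in the first 150 residues. Proteins (global, BLOSUM62) and promoters (local) were aligned with Biopython 1.88. The window rule, the ratio and the counts by direction were run on means simulated without noise. The other counts were not covered by that run. Every listed gene, every tested Zfp gene, the genes of fixed role lists and the tested neighbours of listed genes were named. Zfp943 and Zfp944 promoters, the E-box and the alignments were added after the data were seen. The planned limma test by line was not run, because no column names a line. Alternatives were a ratio of at least 1.5, a mean of at least 100, the window drawn by any base or the whole gene, pseudocounts of 1 and 10, the allele tables, zinc finger genes by motif count, and members sharing over 10% of their 100-base stretches left out.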

Additional observations from a re-analysis of the deposited data

How the results depend on the processing

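The 14 listed genes of the window became 13 when a ratio of at least 1.5 was required, which left out Pkd1, and stayed 14 with a minimum mean of 100, or when genes with any base or with all bases in the window were taken. The count of listed Zfp genes was 10 under each alternative run, but none of these could have changed it. The 10 genes had overall means of at least 280.7, ratios of at least 1.72-fold and at least 11 C2H2 motifs. They shared at most 1.64% of their 100-base stretches. The median log2 ratio of the listed genes was 0.94, also with a pseudocount of 1, and 0.91 with a pseudocount of 10, 0.90 in the 129S5 table and 0.80 in the C57BL/6J table, which list fewer members. All 37 alternatives for single genes kept their direction, with the greatest shift, 0.44 on the log2 scale, for Zfp942 in the 129S5 table, where its means were 91.1 and 35.7. Sorting zinc finger genes by translated motifs, and leaving out members with shared 100-base stretches, were chosen after seeing the data. No paired analysis was possible because the value columns of the lines carry no names. For the same reason the limma test, its pseudocount alternative and leaving out single lines were not run, and the RefSeq protein sequences planned for the motif count were not used here. Listing rests on the authors' test alone, and the spread between lines and the depth per line limit every ratio to an unknown degree.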
